A study of Danio rerio with 2 samples.

Results

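The 7 genes described here, *atf4a*, *atf4b*, *atf5a*, *atf5b*, *atf3*, *ddit3* and *cebpb*, encode bZIP transcription factors of the cellular stress response. They were chosen by their symbols, and all 7 were found among the 37423 features of the deposited counts. They were measured in 2 single-cell RNA-sequencing libraries of zebrafish heads at 3 dpf, which are called here by their labels, mutant and wild-type. The mutant library was made from 10 pooled heads of *polr3a* sa907/sa907 fish and the wild-type library from 10 pooled heads of *polr3a* +/+ fish. Both came from crosses between heterozygous carriers on the AB background, 1 parent with *Tg(fli1a:egfp)* and 1 with *Tg(sox10:mRFP)*, and embryos were screened for both reporters, so that wild-type and mutant fish share this transgenic background. Tissue in front of the pectoral fin was dissociated in trypsin, and viable sorted cells were loaded. *polr3a* encodes the largest subunit of RNA polymerase III, which makes tRNAs and other short RNAs. The comparison asks in which cells of the head the stress response factors differ between the libraries.

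The integrated stress response begins when kinases that sense missing amino acids, misfolded proteins, double-stranded RNA or mitochondrial faults phosphorylate the initiation factor eIF2α. Most translation then falls, while the *atf4* mRNA is translated more, and Atf4 activates genes for amino acid transport, amino acid synthesis and tRNA charging. In mammalian cells ATF4 also raises the mRNA of ATF5, ATF3 and CHOP, the product of *ddit3*, and C/EBPβ is one of its dimer partners. Because ATF4 is controlled largely in translation, counts of *atf4a* and *atf4b* are amounts of mRNA and say nothing of the protein. Zebrafish carry 2 copies each of *atf4* and *atf5*, retained from the genome duplication of teleost fish.

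The values are unique molecular identifiers (UMIs), each of which counts 1 captured transcript at its 3′ end, so levels were not scaled by gene length. After the cell filter the mutant-labelled library held 26454 cells with a median of 4044.5 UMIs, and the wild-type-labelled library 36996 cells with a median of 3401.5 UMIs. Levels are given as CPM, the UMIs of a gene per 1000000 UMIs of the cells pooled. Neither condition has a replicate library, so no test between the conditions was possible and no difference below was tested. The intervals beside ratios, levels and shares are exact 95% intervals that cover counting error only, and differences between fish, dissociations and libraries cannot be told apart from differences between genotypes. *polr3a* itself was at 16.3 CPM in the mutant-labelled library and 13.8 CPM in the wild-type-labelled library (log2 ratio 0.25, 0.16 to 0.33). It was therefore not lower in the mutant-labelled library, this count does not bear out the label, and every direction below rests on the labels. A gene is called higher or lower where its CPM ratio was at least 1.5 in either direction and it had at least 50 UMIs over both libraries.

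Over all cells, every one of the 7 genes was at a higher level in the mutant-labelled library, and 5 of 7 passed the ratio of 1.5. None was lower. Of all 22922 genes with enough UMIs, 5.19% were called higher and 2.75% lower, and the middle 90% of log2 ratios ran from -0.42 to 0.60 around a median of 0.07. The largest difference among the 7 was that of *atf5b*, which ranked 27 of 22922 genes from the top.

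*atf4b*, the more abundant of the *atf4* genes, was at 647 CPM (84530 UMIs) in the mutant-labelled library and 376 CPM (59884 UMIs) in the wild-type-labelled library, a log2 ratio of 0.78 (0.77 to 0.80). *atf4a* was at 138 CPM and 93.6 CPM, a log2 ratio of 0.56 (0.53 to 0.59), just inside the 1.5-fold limit. *ddit3*, whose product CHOP is a pro-apoptotic factor of the stress response, was at 243 CPM (31776 UMIs) and 127 CPM (20177 UMIs), a log2 ratio of 0.94 (0.92 to 0.97). These 3 genes were abundant in both libraries, with a moderate difference.

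The *atf5* genes were scarcer and differed more. *atf5b* was at 94.3 CPM (12331 UMIs) in the mutant-labelled library and 11.98 CPM (1910 UMIs) in the wild-type-labelled library, a log2 ratio of 2.98 (2.91 to 3.05). *atf5a* was at 20.6 CPM (2694 UMIs) and 7.36 CPM (1173 UMIs), a log2 ratio of 1.49 (1.39 to 1.59). *atf3*, a stress-induced repressor and activator, was at 68.9 CPM and 31.3 CPM, a log2 ratio of 1.14 (1.09 to 1.19). *cebpb*, which also acts in myeloid cells and skin, was at 76.4 CPM and 51.7 CPM, a log2 ratio of 0.56 (0.52 to 0.61), just inside the limit. In a current RefSeq annotation, of another assembly than the one used for counting, *atf5b* overlaps LOC407643 and *cebpb* overlaps LOC137496363, and reads of such neighbours could be split or shared.

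Cells were then assigned to classes by gates of marker genes, in which a cell had to hold UMIs of at least 2 different gate genes at 5 times their share in the whole library. Of 34 gates, 21 classes held at least 100 cells in each library, and they are called by the cell type whose markers gated them with the ending "-like". Cells gated by *krtt1c19e*, *col17a1b*, *itgb4* and *cldn1* had *krt5*, written here as a periderm marker, and no marker of their own among their 10 leading genes, and they are called *krtt1c19e*-gated cells. Neurons that passed no narrower gate were divided into those with *gad1b*, *gad2* or *slc32a1* UMIs, those with *slc17a6a* or *slc17a6b* UMIs, and other neurons. Cells that passed no gate were 36.5% and 35.5% of the libraries labelled mutant and wild-type, and cells that passed several gates 5.48% and 5.11%. Among all deposited barcodes 405 occurred in both libraries, as barcodes drawn from 1 list can.

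Among the combinations of 7 genes and 21 classes, 114 had at least 50 UMIs. In 70 of these 114 the gene was called higher in the mutant-labelled library and in 1 lower, against 6.76% higher and 5.67% lower over all combinations of gene and class. Some of the 70 reached 50 UMIs only with the counts of the mutant-labelled library, as given by gene below. Each of 17 classes had at least 1 gene called higher, and 4 classes had none. The intervals were not adjusted for their number.

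**Figure D1:**
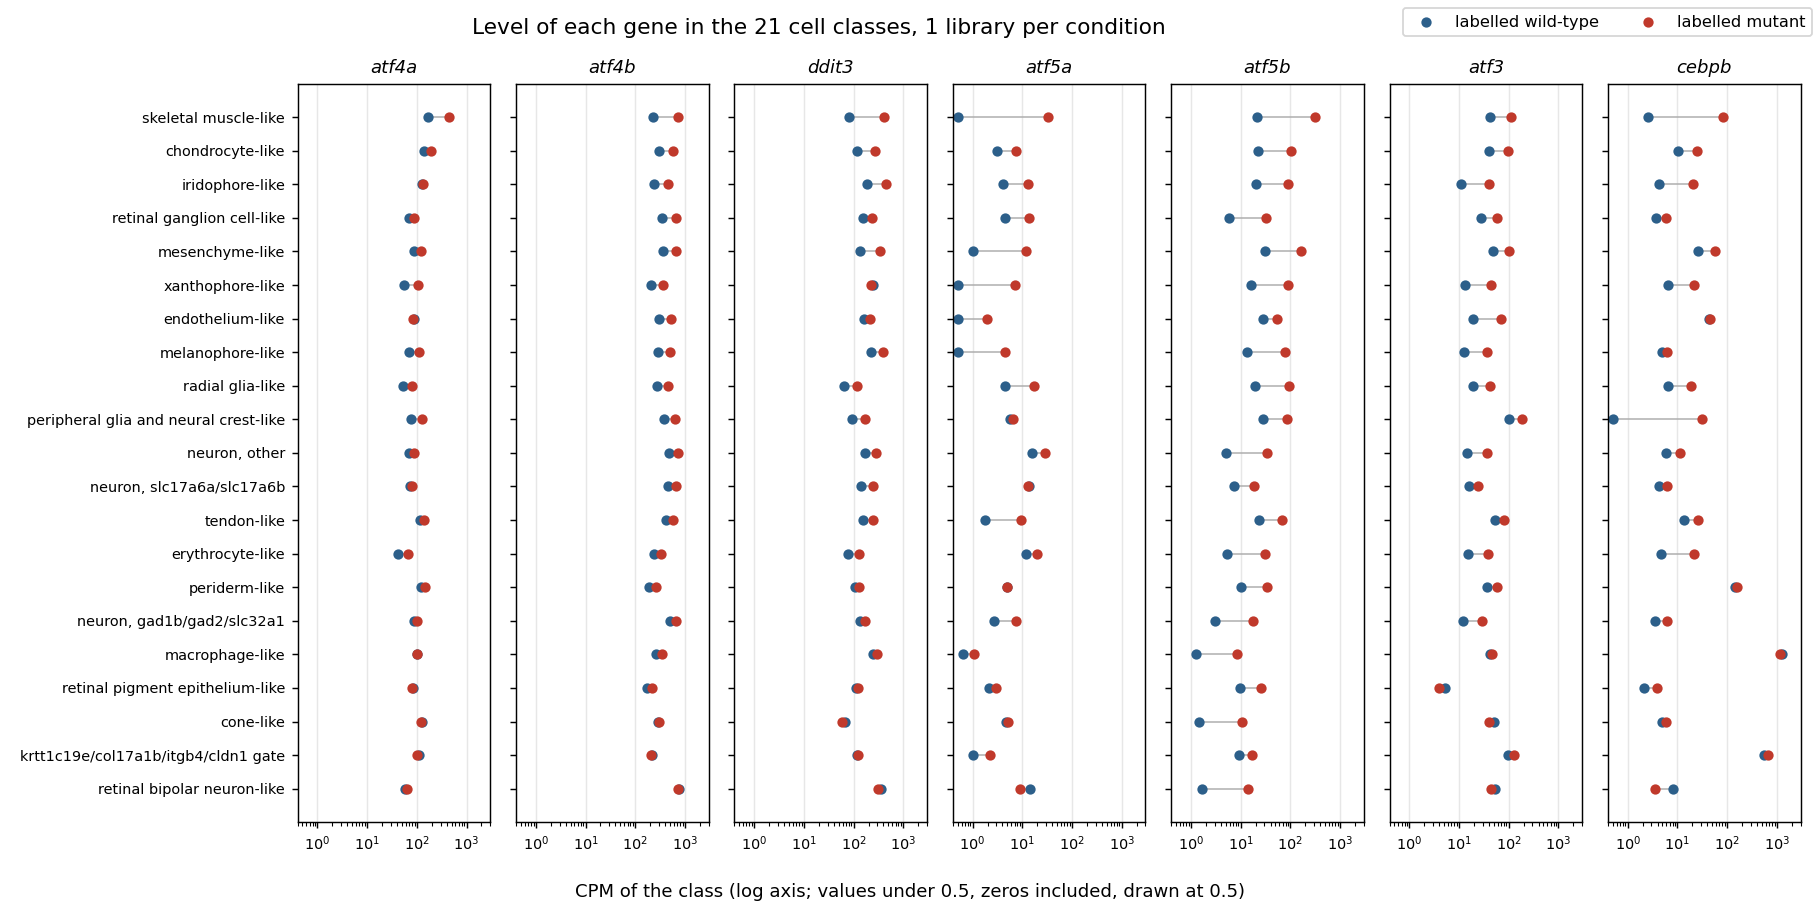
Level of each of the 7 genes, in CPM on a log axis, in the 21 cell classes (rows, ordered by the *atf4b* ratio) for the wild-type-labelled library (blue) and the mutant-labelled library (red), 1 library each and no error drawn. The *atf4* genes and *ddit3* were present in all 21 classes, and *cebpb* reached 1273 and 1142 CPM in macrophage-like cells.

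*atf4b* was called higher in 11 of 21 classes and lower in none. Among the 21 classes its level in the wild-type-labelled library was highest in retinal bipolar neuron-like cells (759 CPM), followed by the neurons with *gad1b*, *gad2* or *slc32a1* (498 CPM) and other neurons (483 CPM), whose counting intervals touch, and lowest in retinal pigment epithelium-like cells (177 CPM). In the mutant-labelled library the muscle-like cells (736 CPM), other neurons (727 CPM) and bipolar cells (723 CPM) had overlapping intervals. Skeletal muscle-like cells went from 229 CPM in the wild-type-labelled library to 736 CPM in that labelled mutant (log2 ratio 1.68, 1.54 to 1.83), chondrocyte-like cells from 295 to 575 CPM (0.96, 0.87 to 1.05), and retinal ganglion cell-like cells from 347 to 654 CPM (0.92, 0.80 to 1.03). The bipolar cells themselves stood at 723 CPM in the mutant-labelled library (log2 ratio -0.07, -0.15 to 0.01). Of the 21 classes, the one with the most *atf4b* mRNA in the wild-type library thus showed no difference beyond counting error.

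*atf4a* was called higher in 6 of 21 classes and lower in none. Its wild-type level was, among these classes, highest in skeletal muscle-like cells (167 CPM), then in chondrocyte-like (137 CPM) and cone-like cells (129 CPM), the last pair with overlapping intervals. The 6 classes were skeletal muscle-like, xanthophore-like, peripheral glia and neural crest-like, erythrocyte-like, melanophore-like and radial glia-like cells. In muscle *atf4a* reached 445 CPM in the mutant-labelled library (log2 ratio 1.42, 1.25 to 1.59), and in the other 5 classes the log2 ratio ran from 0.61 to 0.92. The 6 classes are 28.6% of those tested, and the share was 10% to 52.4% under other settings. In iridophore-like cells, where *atf4b* had a log2 ratio of 0.92, *atf4a* was at 133 and 126 CPM (0.08, -0.21 to 0.38).

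*ddit3* was called higher in 12 of 21 classes (57.1%) and lower in none, and in 33.3% of classes where every cell was given equal weight. Among the 21 classes of the wild-type-labelled library it was highest in bipolar neuron-like cells (362 CPM), then in macrophage-like (247 CPM), xanthophore-like (243 CPM) and melanophore-like cells (226 CPM), these 3 with overlapping intervals, and lowest in radial glia-like cells (65.2 CPM). In the mutant-labelled library the order differed, with iridophore-like (446 CPM), skeletal muscle-like (401 CPM) and melanophore-like cells (398 CPM) first. The log2 ratio was 2.30 (2.07 to 2.53) in muscle, 1.37 (1.26 to 1.47) in mesenchyme-like cells, 1.26 (1.06 to 1.46) in iridophore-like cells and 1.17 (1.03 to 1.32) in chondrocyte-like cells. In bipolar neuron-like cells *ddit3* was slightly lower in the mutant-labelled library (1244 and 1274 UMIs, 313 and 362 CPM, log2 ratio -0.21, -0.32 to -0.09), which does not reach the 1.5-fold limit.

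*atf5b* had at least 50 UMIs in 15 classes and was called higher in all 15. In 10 of them the wild-type-labelled library held under 50 UMIs, so that they reached the limit only with the counts of the mutant-labelled library, and the count of 15 is in part set by the limit. The same holds for 6 of the 8 classes of *atf5a* and 5 of the 10 of *cebpb* below. It also holds for *atf4a* in xanthophore-like cells (44 and 17 UMIs). For *atf3* it holds in endothelium-like (74 and 15 UMIs), iridophore-like (54 and 18) and erythrocyte-like cells (48 and 28) and in neurons with *slc17a6a* or *slc17a6b* (72 and 48). The log2 ratio of *atf5b* ran from 0.92 in endothelium-like cells (56 and 22 UMIs, 0.19 to 1.70) to 3.87 in skeletal muscle-like cells (765 and 49 UMIs, 3.45 to 4.31). Among the 21 classes of the wild-type-labelled library its level ran from 1.25 CPM in macrophage-like cells to 30.9 CPM in mesenchyme-like cells. In the mutant-labelled library it reached 307 CPM in muscle, 166 CPM in mesenchyme-like and 105 CPM in chondrocyte-like cells. *atf5b* was also called higher in bipolar neuron-like cells, where *atf4b* and *ddit3* were not called at the 1.5-fold limit. In bipolar neuron-like cells 55 UMIs in the mutant-labelled library stood against 6 in that labelled wild-type (log2 ratio 3.02, 1.81 to 4.53). Cone-like cells held 36 and 6 UMIs and macrophage-like cells 16 and 2 UMIs, both under the limit of 50.

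*atf5a* reached 50 UMIs in 8 classes, of which 6 were called higher and 1 lower. Skeletal muscle-like cells held 83 UMIs in the mutant-labelled library and 1 in that labelled wild-type (log2 ratio 6.28, 3.76 to 11.60), and mesenchyme-like cells 84 and 8 UMIs (3.56, 2.51 to 4.81). Radial glia-like cells held 75 and 25 UMIs (1.92, 1.25 to 2.63). The lower class was the bipolar neuron-like cells, with 35 UMIs in the mutant-labelled library and 51 in that labelled wild-type (-0.71, -1.38 to -0.07). Neurons with *slc17a6a* or *slc17a6b* had 40 and 41 UMIs (-0.03, -0.70 to 0.63). Among smaller classes, olfactory sensory neuron-like cells, 33 and 52 in number, had 131 and 173 UMIs, which is 620 and 549 CPM (0.18, -0.16 to 0.51). In mice ATF5 is known as a factor of olfactory sensory neuron differentiation. The cell class with the highest *atf5a* level among all gates thus showed no difference beyond counting error, while classes with almost none in the wild-type library had some in that labelled mutant.

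*atf3* was called higher in 14 of 18 classes with enough UMIs. Among the 21 classes of the wild-type-labelled library it was highest in peripheral glia and neural crest-like (103 CPM) and *krtt1c19e*-gated cells (96.7 CPM), whose intervals overlap. Endothelium-like cells had 74 and 15 UMIs (log2 ratio 1.88, 1.06 to 2.78), iridophore-like cells 54 and 18 UMIs (1.88, 1.09 to 2.74) and skeletal muscle-like cells 271 and 97 UMIs (1.38, 1.05 to 1.73). Cone-like cells had 136 and 209 UMIs (-0.38, -0.70 to -0.06), lower in the mutant-labelled library but short of the limit. *atf3* also belongs to the immediate early genes that tissue dissociation induces. Over all cells 1 of 21 other immediate early and dissociation genes was called higher (*fosb*, log2 ratio 0.59) and 1 lower (*hsp70l*, -0.62), against 5.19% and 2.75% of all genes. The median of these 21 genes was 0.21, against 0.07 for all genes. Their summed level had a log2 ratio of 0.49 in endothelium-like, 0.32 in iridophore-like, 0.17 in muscle-like and 0.19 in cone-like cells, and from -0.45 in retinal pigment epithelium-like to 0.51 in tendon-like cells over the 21 classes. Its part in the *atf3* result was not tested.

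*cebpb* was, among the 21 classes, highest in leukocytes and skin. Macrophage-like cells had 1142 and 1273 CPM in the libraries labelled mutant and wild-type, *krtt1c19e*-gated cells 654 and 558 CPM, and periderm-like cells 158 and 144 CPM, an order in which no intervals overlap. Neutrophil-like cells, a class of 55 and 88 cells, had 2636 and 2334 CPM. In the first 3 of these classes *cebpb* was not called, with log2 ratios of -0.16 (-0.25 to -0.07), 0.23 (0.11 to 0.35) and 0.13 (-0.03 to 0.29). It was called higher in 6 of 10 classes with enough UMIs, all of them classes with 26.0 CPM or less in the wild-type library. Skeletal muscle-like cells had 203 and 6 UMIs (log2 ratio 4.98, 3.84 to 6.45), mesenchyme-like cells 398 and 202 UMIs (1.14, 0.89 to 1.39) and radial glia-like cells 83 and 36 UMIs (1.54, 0.96 to 2.15). Peripheral glia and neural crest-like cells had 19 and 0 UMIs. Of smaller classes, pericyte-like cells (60 and 50 in number) had 45 and 49 UMIs, which is 128 and 204 CPM (-0.67, -1.29 to -0.06). Ionocyte-like cells (18 and 47 in number) had 5 and 78 UMIs, which is 31.1 and 177 CPM (-2.51, -4.17 to -1.22). In both *cebpb* was called lower in the mutant-labelled library, on few cells. The share of all genes called was not taken in these small classes. Calls of other members in small classes also went the other way. Examples are *atf4b* in osteoblast-like cells (170 and 78 UMIs, 0.62, 0.22 to 1.02) and *atf3* in neutrophil-like cells (173 and 94 UMIs, 0.93, 0.56 to 1.31).

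**Figure D2:**
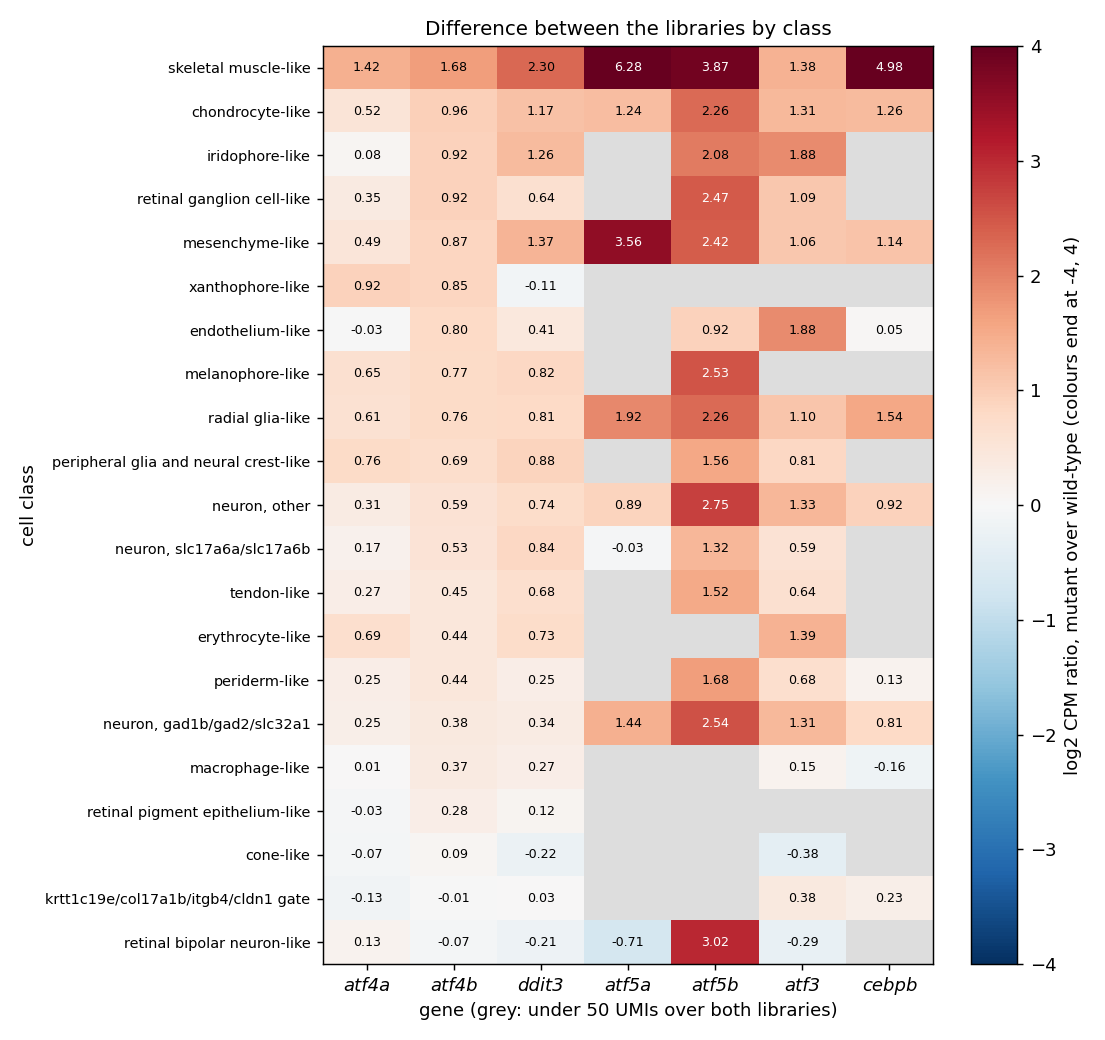
Log2 ratio of CPM, library labelled mutant over library labelled wild-type, of the 7 genes (columns) in the 21 cell classes (rows), with the value printed in each field and grey where a gene had under 50 UMIs. Skeletal muscle-like cells are high in all 7 columns, and *atf5b* is high in bipolar neuron-like cells where the other genes are near or under 0.

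By class, all 7 genes were called higher in skeletal muscle-like cells (311 and 319 cells), with a median log2 ratio of 2.30, and in radial glia-like cells (918 and 1411 cells), with a median of 1.098. Of these, *atf5a* (83 and 1 UMIs), *atf5b* (765 and 49) and *cebpb* (203 and 6) reached the UMI limit in muscle only with the mutant-labelled counts. The same holds for *atf5a* (75 and 25) and *cebpb* (83 and 36) in radial glia-like cells. In muscle 21.5% of all genes tested were called higher and the median log2 ratio of all genes was 0.17, against 0.07 over all cells. The summed level of the 5 muscle gate genes was lower there in the mutant-labelled library (21145 and 28339 CPM, log2 ratio -0.42, -0.44 to -0.41). Their part in the result was not tested. In radial glia-like cells 5.8% of all genes were called higher. In chondrocyte-like (876 and 1084 cells) and mesenchyme-like cells (1391 and 1907 cells) 6 of 7 genes were called higher, against 6.27% and 4.89% of all genes. There *atf5a* (39 and 15, and 84 and 8 UMIs) and, in chondrocyte-like cells, *cebpb* (129 and 49) reached the limit only with the mutant-labelled counts. Peripheral glia and neural crest-like cells had 5 of 5 and melanophore-like cells 4 of 4 tested genes higher, against 8.59% and 9.93%. In both, *atf5b* reached the limit only with the mutant-labelled counts (52 and 20, and 52 and 11 UMIs). In the glia and crest class only 1 of 3 marker genes kept out of its gate was over 2-fold above the remaining cells. There the summed level of the 6 mitotic genes named below had a log2 ratio of -0.90 (-1.04 to -0.76). The part of this make-up was not tested. Chondrocytes, mesenchyme, peripheral glia and pigment cells of the head descend wholly or partly from the cranial neural crest.

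The other classes with calls lay between. Other neurons had 6 of 7 tested genes higher (against 4.98% of all genes), iridophore-like cells 4 of 5 (7.72%), retinal ganglion cell-like cells 4 of 5 (7.21%) and erythrocyte-like cells 3 of 4 (7.55%). Xanthophore-like cells had 2 of 3 (9.71%), tendon-like cells 3 of 5 (7.66%) and neurons with *gad1b*, *gad2* or *slc32a1* 4 of 7 (4.31%). Neurons with *slc17a6a* or *slc17a6b* had 3 of 6 (5.89%), endothelium-like cells 3 of 6 (8.29%) and periderm-like cells 2 of 6 (6.86%). Some genes called higher here reached the UMI limit only with the mutant-labelled counts. In neurons with *gad1b*, *gad2* or *slc32a1* they were *atf5a* (84 and 35 UMIs), *atf5b* (206 and 40) and *cebpb* (70 and 45). Such a gene was *atf5b* in iridophore-like, retinal ganglion cell-like, tendon-like and endothelium-like cells and in neurons with *slc17a6a* or *slc17a6b*. The *atf3* and *atf4a* calls named above for this limit are among them too. None of the genes with enough UMIs was called higher in cone-like cells (0 of 4, against 5.08% of all genes), *krtt1c19e*-gated cells (0 of 5, 4.37%), retinal pigment epithelium-like cells (0 of 3, 6.1%) or macrophage-like cells (0 of 5, 7%). In bipolar neuron-like cells 1 of 6 was higher and 1 lower, against 3.59% and 5% of all genes. There *atf5b* (55 and 6 UMIs) reached the limit only with the mutant-labelled counts and *atf5a* (35 and 51) only with the wild-type-labelled counts. Macrophage-like cells had *atf4b* at 342 and 265 CPM (log2 ratio 0.37, 0.19 to 0.55) and *ddit3* at 297 and 247 CPM (0.27, 0.08 to 0.46). Cone-like cells had *atf4b* at 307 and 288 CPM (0.09, -0.03 to 0.21).

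In cells gated by the rod genes *gnat1*, *pde6b*, *gngt1*, *saga* and *cnga1*, a class of 104 and 97 cells whose leading gene was *exorh*, an opsin of the pineal gland, the genes differed in direction. *ddit3* had 97 UMIs in the mutant-labelled library and 200 in that labelled wild-type (log2 ratio -1.34, -1.71 to -0.98). *atf3* had 34 and 53 UMIs (-0.94, -1.60 to -0.29). *atf4b* had 433 and 206 UMIs (0.77, 0.53 to 1.02). Of the 4 genes with enough UMIs besides *atf4b*, 3 were called lower (*ddit3*, *atf3* and *atf5b*, the last with 23 and 40 UMIs), in a class in which 17.5% of all genes were lower and 11.4% higher. The class lies under the limit of 100 cells and its values rest on few cells.

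For *ddit3*, *atf3* and *atf5b*, differences as large as those of muscle or larger were found in cells that had passed no gate. They were divided, after the data had been seen, by the mitotic genes *mki67*, *top2a*, *cdk1*, *ube2c*, *aurkb* and *tpx2* (here the mitotic set), by the neural progenitor genes *sox2*, *sox3*, *sox19a*, *her9*, *her4.2* and *pax6a* (here the sox/her set), and by 6 epithelial genes. In cells with both the mitotic and the sox/her set (801 and 1640 cells) *atf4b* was at 1220 CPM in the mutant-labelled library and 398 CPM in that labelled wild-type (log2 ratio 1.62, 1.57 to 1.67). *ddit3* was at 285 and 30.9 CPM there (3.20, 3.05 to 3.36), *atf3* at 119 and 14.1 CPM (3.08, 2.85 to 3.32), and *atf5b* at 253 and 10.1 CPM (4.65, 4.39 to 4.91). *ddit3* was therefore lower in these cells than in any of the 21 classes in the wild-type library, and at the level of other neurons (285 CPM) in that labelled mutant. All 7 genes were called higher in these cells, against 12.5% of all genes. Of these, *atf5a* (383 and 29 UMIs) and *cebpb* (479 and 20) reached the UMI limit only with the mutant-labelled counts.

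In cells with the sox/her set alone (1062 and 1246 cells) all 7 were also higher, against 12% of all genes, with *atf5b* at 235 and 7.79 CPM (log2 ratio 4.91, 4.49 to 5.37) and *atf5a* at 52.7 and 1.69 CPM (4.96, 4.06 to 6.03). In cells with the mitotic set alone (787 and 1220 cells) all 7 were higher, against 11.3%, with *ddit3* at 434 and 73.9 CPM (2.56, 2.401 to 2.71). *cebpb*, almost absent from the sox/her cells of the wild-type library (4.06 CPM), was at 54.8 CPM there in that labelled mutant (3.75, 3.16 to 4.41). In the sox/her cells *atf5a* (346 and 10 UMIs) and *atf5b* (1543 and 46) reached the UMI limit only with the mutant-labelled counts. The same holds there for *cebpb* (360 and 24), and for *atf5a* in cells with the mitotic set alone (167 and 9). In cells with the epithelial set 1 of 7 was higher, against 6.35% of all genes, namely *atf5b* (153 and 39 UMIs, 1.90, 1.38 to 2.44). It too reached the limit only with the mutant-labelled counts. In the cells with the mitotic set alone the summed level of the 6 epithelial genes was higher in the mutant-labelled library (log2 ratio 0.70, 0.60 to 0.81) and that of the neural progenitor genes lower (-0.31, -0.43 to -0.19). The immediate early and dissociation genes had summed log2 ratios of 0.45 in the cells with both sets, 0.55 in those with the sox/her set alone and 0.15 in those with the mitotic set alone. The part of these genes in the results was not tested. The summed level of the 6 mitotic genes had log2 ratios of 0.07 and -0.77 in the cells with both sets and in those with the sox/her set alone. Among gated classes it was -1.76 in muscle-like and -0.47 in radial glia-like cells.

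The paralogs of each pair were compared in level and in ratio. *atf4b* made up 82.4% (82.2 to 82.7) of the UMIs of the *atf4* pair in the mutant-labelled library and 80.1% (79.8 to 80.3) in that labelled wild-type. It was the majority in all 21 classes of both libraries, from 62.3% and 57.9% in skeletal muscle-like cells to 92.1% and 93.01% in bipolar neuron-like cells. The log2 ratio of *atf4b* exceeded that of *atf4a* by 0.22 (0.19 to 0.26) over all cells, and its interval lay above 0 in 9 classes and below 0 in none. Iridophore-like cells had 77.5% and 65.9% (difference in log2 ratio 0.83, 0.49 to 1.18).

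For the *atf5* pair the share of *atf5b* was 82.1% (81.4 to 82.7) in the mutant-labelled library and 62.0% (60.2 to 63.7) in that labelled wild-type, and the log2 ratio of *atf5b* exceeded that of *atf5a* by 1.49 (1.37 to 1.61). Without the 1% of cells with the most UMIs of each gene the log2 ratios were 3.23 for *atf5b* and 2.78 for *atf5a*. With all cells kept, the interval of the difference between the paralogs lay above 0 in 7 of 18 classes and below 0 in 1. In the wild-type library *atf5b* was the majority in 16 of 21 classes, and in that labelled mutant in 21 of 21. Some of these shares have intervals that hold 50%. Examples are wild-type macrophage-like cells (66.7%, 9.43 to 99.2, on 1 and 2 UMIs of the pair) and mutant-labelled erythrocyte-like cells (60.3%, 47.2 to 72.4). The 5 classes with an *atf5a* majority in the wild-type library were bipolar neuron-like, cone-like and erythrocyte-like cells, neurons with *slc17a6a* or *slc17a6b*, and other neurons. In bipolar neuron-like cells the share of *atf5b* was 61.1% and 10.5% (difference in log2 ratio 3.74, 2.30 to 5.37), in other neurons 53.7% and 24.2% (1.86, 1.52 to 2.20), and in cone-like cells 66.7% and 24% (2.66, 0.96 to 4.48). In mesenchyme-like cells the order was the opposite, with 93.2% and 96.8% (-1.13, -2.41 to -0.06), on only 8 UMIs of *atf5a* in the wild-type library. In the sox/her cells, where both genes were far higher in the mutant-labelled library, the share was 81.7% and 82.1% (-0.04, -1.21 to 0.98).

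**Figure D3:**
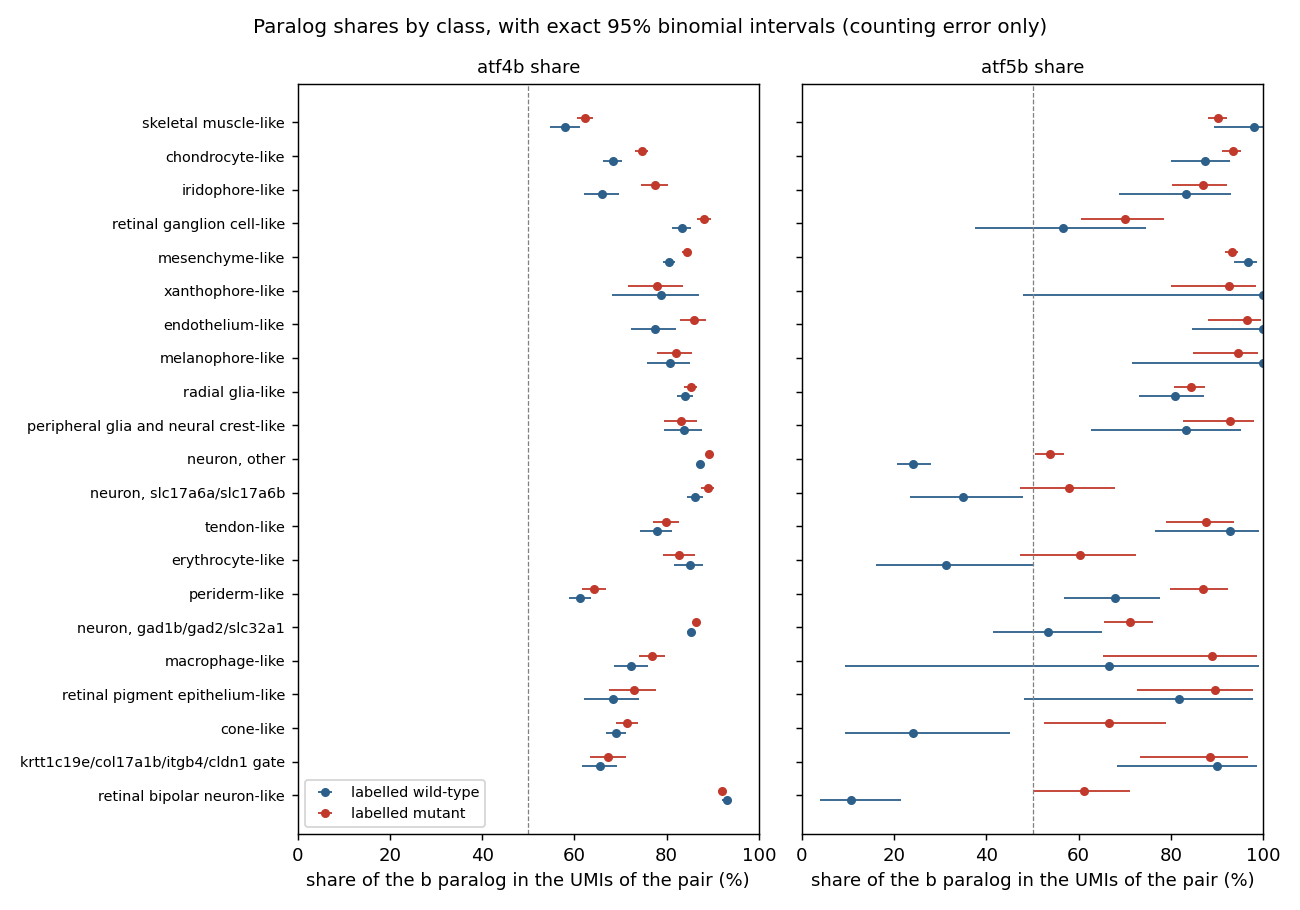
Share of the b paralog in the UMIs of the *atf4* pair (left) and the *atf5* pair (right) in the 21 classes, with exact 95% binomial intervals for the wild-type-labelled library (blue) and that labelled mutant (red). *atf4b* is above 50% in all classes, and *atf5b* is at 10.5% in wild-type bipolar neuron-like cells and 61.1% in those of the mutant-labelled library.

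The shares of cells with a UMI were compared with every cell thinned at random to 1000 UMIs, so that 1740 mutant-labelled and 2720 wild-type-labelled shallower cells were dropped. Of thinned cells, 38.6% (38.01 to 39.2) and 28.6% (28.1 to 29.0) held *atf4b*, 16.5% (15.996 to 16.9) and 10.25% (9.93 to 10.6) held *ddit3*, and 6.51% (6.21 to 6.83) and 1.18% (1.07 to 1.30) held *atf5b*. Without thinning these shares were 68.9% and 60.3%, 39.2% and 25.03%, and 18.5% and 4.36%. *atf4a* was found in 10.4% and 7.85% of thinned cells, *atf3* in 5.07% and 2.72%, *cebpb* in 3.48% and 2.22%, and *atf5a* in 1.61% and 0.689%. All 7 shares were higher in the mutant-labelled library with separate intervals, which 11.9% of all genes showed. The log2 ratio of these shares ran from 0.41 to 2.47.

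Free RNA was not estimated and doublets were kept, so a small share need not stand for expression in the class. *cebpb* was found in 52.1% and 49.6% of thinned macrophage-like cells and in 0.33% and 0.473% of thinned bipolar neuron-like cells, where little is expected, with median depths of 8637.5 and 6445.5 UMIs and of 2693.5 and 2554 UMIs before thinning. Unthinned, these shares were 81.7% and 73.7%, and 1.17% and 1.46%. *atf5b* was found in 0 of 215 and 0 of 226 thinned macrophage-like cells, which allows shares of cells with a UMI at this depth of up to 1.70% and 1.62% by the exact interval, and in 21.9% (17.3 to 26.9) and 1.28% (0.350 to 3.25) of thinned skeletal muscle-like cells. Unthinned, these shares were 5.50% and 0.862%, and 62.4% and 13.8%. No class can be taken to lack *atf4b* or *ddit3*. In cone-like cells *ddit3* was found in 4.97% and 5.89% of thinned cells, and in 16.1% and 15.4% unthinned.

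Some of the genes were concentrated in few cells. The 1% of cells with the most *atf5a* held 38.1% of its UMIs in the mutant-labelled library and 74.5% in that labelled wild-type, and the log2 ratio of *atf5a* was 2.78 without them, against 1.49 with them. For *cebpb* these shares were 47.8% and 63.6%, and the log2 ratio was 1.08 without these cells, against 0.56. The cells left out were chosen by the gene's own UMIs, so these values are a description.

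High cells were looked at further with thresholds chosen after the data had been seen. At least 3 UMIs of *atf5a* were held by 102 cells of the wild-type-labelled library (0.276%) and 194 of that labelled mutant (0.733%). Of the 102, 29 were olfactory sensory neuron-like and 42 other neurons, and the parvalbumin gene *pvalb5*, the gene that led them, had UMIs in 73.5% of them against 1.3% of the remaining cells. *pvalb5*, *fabp10b* and *ompb* were among the leading genes of the olfactory sensory neuron-like class, and the last 2 had UMIs in 41.2% and 34.3% of the 102 cells. Of the 194, 18 were olfactory sensory neuron-like, 36 other neurons, 38 sox/her cells and 34 cells with both the mitotic and the sox/her set, and *pvalb5* had UMIs in 22.2%. The high *atf5a* cells were thus mainly neurons in the wild-type library, and both neurons and cells with progenitor genes in that labelled mutant.

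At least 10 UMIs of *ddit3* were held by 480 cells of the mutant-labelled library (1.81%, 1.66 to 1.98) and 173 of that labelled wild-type (0.468%, 0.401 to 0.543). The median depth of these cells was 9539 and 4484 UMIs, against 3973 and 3397 UMIs of the remaining cells. In the wild-type library 65 of 173 were other neurons and 23 bipolar neuron-like, and the genes that led them were *gadd45ga*, a stress-inducible growth arrest gene, *atf5a* and *bmf2*, a pro-apoptotic gene of the Bcl2 family. *atf5a* had UMIs in 34.7% of them against 1.65% of the remaining cells. In the mutant-labelled library the leading genes were *isg15* and *irf7*, which belong to the interferon response, with UMIs in 31.7% and 26.7% of the high cells against 4.03% and 2.95% of the others. *atf5b* had UMIs in 65.4% of the mutant high cells against 17.6% of the others. At least 5 UMIs of *atf5b* were held by 696 cells of the mutant-labelled library and 9 of that labelled wild-type, and *isg15* led the former as well, with UMIs in 48.3% of them against 3.35% of the others. These high cells were deeper than the rest, and the part of depth in the shares was not tested.

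At 1000 UMIs per cell, 43.8% (43.1 to 44.4) of cells of the mutant-labelled library and 56.4% (55.9 to 57.0) of that labelled wild-type held none of the 7 genes. 2 of the genes were held by 14.3% and 7.69% of cells, 3 by 4.04% and 0.96%, and 4 or more by 1.11% (0.982 to 1.25) and 0.0963% (0.0663 to 0.135), which is 274 and 33 cells. Exactly 1 gene was held by 36.7% and 34.8%.

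**Figure D4:**
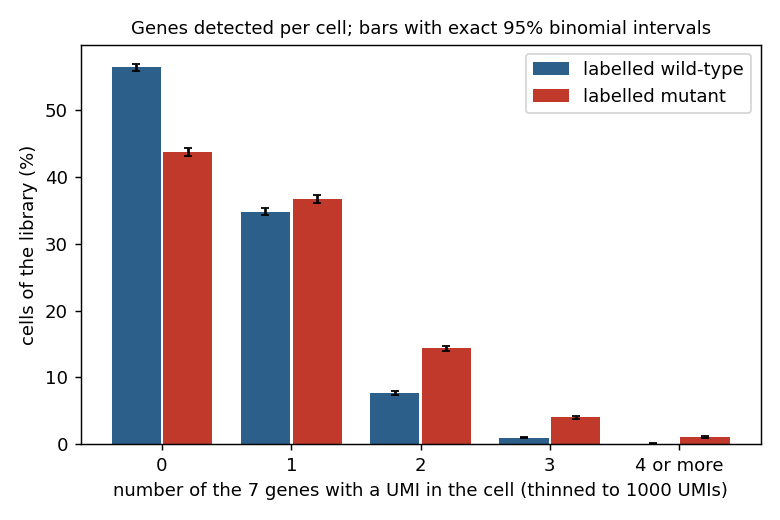
Share of cells, in percent, that held UMIs of 0, 1, 2, 3, or 4 or more of the 7 genes after thinning to 1000 UMIs, with exact 95% binomial intervals for the wild-type-labelled library (blue) and that labelled mutant (red). The share with 4 or more genes was 1.11% in the mutant-labelled library and 0.0963% in that labelled wild-type.

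To see whether the genes occurred in the same cells beyond what their levels in each class imply, the number of thinned cells with both genes of a pair was divided by the number expected from their shares within each class, over 14770 and 20911 classed cells. The expected number treats each class as uniform, although the other neurons (3950 and 6931 of these cells) are a remainder class. Doublets were kept, and cells without a class were left out. The part of these points in the ratios was not tested. The ratio was at least 1.5 for 7 of 21 pairs in the mutant-labelled library and 7 of 21 in that labelled wild-type, a value that 1.19% and 1.39% of pairs of a member with another gene reached. These other genes were found in at least 5% of cells, a limit that some of the 7 genes do not reach. Of the 7 pairs, 1 in the mutant-labelled library and 3 in that labelled wild-type rested on 5 to 10 cells and had intervals that hold 1. *atf5a* and *ddit3* were found together in 79 cells of the mutant-labelled library, against 31.0 expected (ratio 2.55, 2.02 to 3.18), and in 66 of that labelled wild-type, against 20.1 expected (3.28, 2.54 to 4.18). *atf3* and *ddit3* had ratios of 1.59 (1.37 to 1.85) and 1.99 (1.64 to 2.38), and *atf5b* and *ddit3* 1.76 (1.52 to 2.02) and 1.68 (1.19 to 2.31). *atf5a* and *atf5b* had 2.89 (1.89 to 4.24) and 10.7 (5.34 to 19.1), on 26 and 11 cells.

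**Figure D5:**
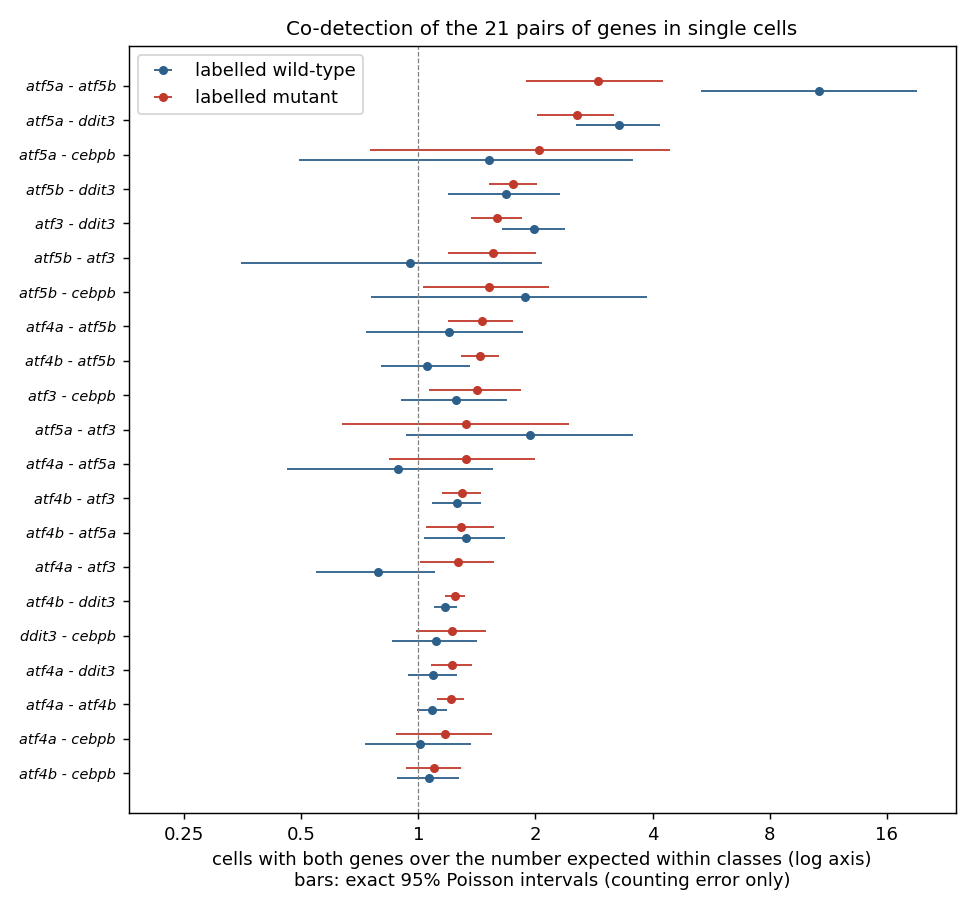
Cells with both genes over the number expected within classes, on a log axis, for the 21 pairs of the 7 genes, with exact 95% Poisson intervals for the wild-type-labelled library (blue) and that labelled mutant (red). Pairs of *ddit3* with *atf5a*, *atf5b* and *atf3* lie above 1.5 in both libraries, and pairs with *atf4a* or *atf4b* lie between 0.79 and 1.45.

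The abundant *atf4* genes had lower ratios. *atf4b* and *ddit3* had ratios of 1.24 (1.17 to 1.32) and 1.17 (1.096 to 1.26), and *atf4a* and *atf4b* 1.21 (1.12 to 1.31) and 1.08 (0.992 to 1.18). The ratio of *atf4b* and *ddit3* was nevertheless above that of *atf4b* with 98.6% and 99.4% of the other genes compared. In other neurons *ddit3* was found in 21.7% of thinned cells with *atf4b* and 15.5% of those without in the mutant-labelled library, and in 13.5% and 10.6% in that labelled wild-type. In skeletal muscle-like cells it was found in 33.6% and 24.5% in the mutant-labelled library and in 13.6% and 7.32% in that labelled wild-type. In both classes *ddit3* was thus also more frequent in the mutant-labelled library among cells in which no *atf4b* was found. Some other classes went the other way. In periderm-like cells *ddit3* was found in 6.82% and 10.9% of cells without *atf4b* in the libraries labelled mutant and wild-type. In *krtt1c19e*-gated cells it was rarer with *atf4b* than without, in the mutant-labelled library (7.14% and 10.1%) and in that labelled wild-type (4.88% and 11.4%).

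The genes that shared cells with the members most often were named by rank. With *ddit3* these were *hunk*, *mycn*, *sox4b*, *znf503* and *cebpg* in the mutant-labelled library (ratios of 2.13 to 1.61) and *hunk*, *ppp1r15a*, *si:ch211-195b15.8*, *mycn* and *hoxb3a* in that labelled wild-type (2.28 to 1.72). *ppp1r15a* encodes the phosphatase subunit that reverses eIF2α phosphorylation. With *atf4b* they were *igfbp1a*, *slc1a4*, *gars*, *si:ch211-39i2.2* and *psat1* in the mutant-labelled library (1.53 to 1.39), and *hunk*, *marcksa*, *sox4b*, *rab11bb* and *si:dkey-12h9.6* in that labelled wild-type (1.26 to 1.21). *slc1a4* encodes a neutral amino acid transporter, *gars* the glycyl-tRNA synthetase and *psat1* an enzyme of serine synthesis, all of which are on the list of target genes used below.

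Around the 7 genes, the target genes of the integrated stress response differed most and the mRNAs of its upstream arms little. Phosphorylation of eIF2α was not measured. Of 22 target genes 19 were called higher and none lower over all cells, against 5.19% and 2.75% of all genes. Their median log2 ratio was 1.18, against 0.07 for all genes. The lists were written with earlier results of these data known, so these counts are descriptions. The study had itself reported *chac1* and *aars*, both on the target list, as upregulated in these libraries. The 3 targets farthest from 0 were *stc2a* (2.29), *sesn2* (2.23), a restraint on TORC1, and *slc1a4* (1.96). Of 8 genes for the eIF2α kinases, eIF2α and its phosphatases 1 was higher, *eif2ak1*, the heme-regulated kinase (0.85), with a median of 0.23, followed by *ppp1r15a* (0.43) and *ppp1r15b* (0.41). The kinase gene *eif2ak4* was written on this list but its symbol was not matched, so nothing is known here of its level. Of 13 genes of the unfolded protein response 1 was higher, *xbp1* (0.76), with a median of 0.03, followed by *atf6* (0.49) and *creld2* (-0.35). Single calls in lists of 8 and 13 genes cannot be told apart from the 5.19% of all genes. Of 32 other ATF, CREB and C/EBP genes 5 were higher, with a median of 0.28, and the 3 farthest were *creb3l3a* (1.24, at 0.459 and 0.195 CPM), *cebpg* (1.196, also on the list of targets) and *creb5a* (0.79). The chaperone *hspa5*, chosen after its values were seen, was at 311 and 351 CPM (-0.17).

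Across classes the median of the target genes varied widely. The median log2 ratio was 2.98 in skeletal muscle-like cells (20 of 21 higher), 0.99 in radial glia-like cells (18 of 21), 0.32 in bipolar neuron-like cells (6 of 17), 0.19 in cone-like cells (4 of 17) and -0.08 in *krtt1c19e*-gated cells (1 of 11). Of all genes tested, 21.5%, 5.8%, 3.59%, 5.08% and 4.37% were called higher in these classes, in the same order. In retinal pigment epithelium-like cells 0 of 12 targets were higher, against 6.1% of all genes. Across the 21 classes the log2 ratio of *ddit3* had a Pearson correlation of 0.83 with that of *atf4b*, and the median of the targets one of 0.81 with *atf4b*, 0.86 with *atf4a* and 0.53 with *ddit3*. For the targets it was 0.48 with *atf5b* (15 classes), 0.52 with *atf3* (18), 0.95 with *atf5a* (8) and 0.91 with *cebpb* (10). *atf5b* and *atf4b* had 0.32. Muscle-like cells had the highest value of the targets and of each of the 7 genes except *atf3*, and their weight was not tested. For *atf5a* they had 6.28 and the next class 3.56, and for *cebpb* 4.98 and 1.54. The correlations are descriptions over classes of the same 2 libraries, which share depth, dissociation and free RNA. Periderm-like cells were among several classes in which the targets (there 12 of 18, against 6.86% of all genes, median 0.86) differed more than *atf4b* (0.44) and *ddit3* (0.25) did. In other classes the targets differed less, as in iridophore-like cells (median 0.57, against 0.92 for *atf4b* and 1.26 for *ddit3*).

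Over the 42 points of 21 classes and 2 libraries, the genes whose log2(CPM + 1) was most like that of a member were compared among 11826 genes. For *atf4b* these were *cebpg* (r = 0.83), *bud31*, *fam195b*, *luc7l3* and *ifrd1*, and for *atf4a* *plgrkt* (0.73), *xbp1*, *imp3*, *chac1* and *phb*. For *ddit3* they were *ppp1r15a* (0.70), *eif5b*, *ipo8*, *baxa* and *xrn1*. For *atf5b* they were *mat2ab* (0.83), *arhgef1b*, *sfxn2*, *brf1a* and *cdkn1a*, and for *atf5a* *arg2* (0.68), *gtpbp1*, *slc1a4*, *pet100* and *slc6a15*. *brf1a* encodes a factor of the RNA polymerase III initiation complex, and *cdkn1a* a cyclin-dependent kinase inhibitor. For *atf3* they were *sdad1* (0.76), *junbb*, *btg2*, *fosab* and *zgc:86811*, of which *junbb* and *fosab* are on the list of immediate early genes. For *cebpb* they were *pmaip1* (0.86), *zgc:158343*, *rac2*, *pycard* and *zgc:101640*, and *rac2* and *pycard* are genes of leukocytes. No gene was named under more than 1 member. The points share 2 libraries, and with them depth and free RNA.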

How the data were processed

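Both libraries were analysed from the raw UMI counts per gene and barcode that the authors deposited, made with Cell Ranger (8.0.0 in the file header, another version in the methods) on GRCz11 per the submitters' processing notes. The annotation release and the use of strand are not given in the sources used here. The deposited counts are not normalized. Cells were kept with 500 to 20000 UMIs, 500 to 5000 genes, a novelty score not below 0.8 and mitochondrial UMIs not above 20%, the study's own limits. The total after filtering was 130701622 UMIs (mutant-labelled) and 159367137 UMIs (wild-type-labelled). Scrublet (scanpy 1.11.5) called 0 cells in either library and was treated as not having worked, so that doublets, which the study removed with another tool, were kept. A gate needed UMIs of 2 gate genes, 3 UMIs and 5 times the share in the library (neurons 3 genes, 3 UMIs and 1 times). UMIs were summed per class, and CPM ratios carry conditional binomial, levels Poisson and shares Clopper-Pearson intervals. Depth bears on precision, and cells of 1 library are not replicates. The genes named beyond the members are the 3 farthest from 0 in each context list, the 5 most correlated genes with a level of at least 10 CPM, and the 5 most often co-detected genes found in at least 5% of cells. The members and all lists were chosen with earlier results of these data known. Symbols written in the lists but not matched were not used here. The comparison over all cells was checked on simulated data for 22922 genes, with 200 of them changed by 2-fold. Of its intervals 95.5% covered the true ratio, 98.5% of changed genes were called and 0.717% of unchanged genes. These counts were drawn as Poisson numbers per gene, the error that the intervals assume, so the check covers the calculation only. It held no differences between fish or libraries and no UMIs concentrated in few cells, and its rates do not carry over to the data. Software versions were scipy 1.17.1, numpy 2.4.6, matplotlib 3.10.9, pandas 2.3.3 and Python 3.11.15. Gene overlaps came from a RefSeq table of another assembly, of which no coordinates were used. Alternatives in scaling, filter, weighting, gates, thresholds and thinning were tried.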

Additional observations from a re-analysis of the deposited data

Results flagged for a closer look

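In bipolar neuron-like cells of the retina *atf5a* had a log2 ratio of -0.71, while it was higher in the mutant-labelled library in 6 of the 8 classes with enough UMIs. The direction was opposite between these classes, and the difference between them was not tested. The value rests on 35 and 51 UMIs. No class was called lower for *atf5a* with no cell filter or with a gate of at least 3 genes.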

How the results depend on the processing

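No alternative turned the direction of a log2 ratio over all cells. By class, the 1 combination called lower became 4 with no cell filter and 3 with the 10-fold gate or a ratio of 1.2, and the lower call of *atf5a* was absent with no cell filter and with 3 gate genes. Over all cells 5 of 7 genes were called higher, 7 with no cell filter or a ratio of 1.2, 6 without the 1% of cells with the most UMIs of the gene or without cells that passed several gates, and 5 under the remaining settings. The share of all genes called was taken at the main settings only. The counts and shares called under other settings therefore have no such share beside them. The log2 ratio of *atf5a* ran from 1.09 (equal weight per cell) to 2.78 (without its highest 1% of cells), and that of *cebpb* from 0.43 (class shares of the wild-type library) to 1.08. The share of tested combinations of gene and class called higher was 61.4%, and 48.6% to 75.4% under the alternatives, lowest without the 10% deepest cells of each class. The share of classes with *ddit3* higher was 33.3% with equal weight per cell, against 12 of 21. The 7 pairs with a co-detection ratio of at least 1.5 became 4 in the wild-type-labelled library with cells thinned to 2000 UMIs, and 12 in that labelled mutant with all cells as 1 class; the cause was not tested. Leaving out cells that passed several gates, the deepest cells or shared barcodes, and splitting the ungated cells, were chosen after seeing the data. Doublets called by Scrublet could not be left out, since none was called. No paired analysis was possible because each condition has 1 library. Intervals assume independent UMIs and understate the error where the UMIs of a gene sit in few cells, as for *atf5a* and *cebpb*.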
